A study of Bos taurus with 10 samples.

Results

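Fragments of the cysteine (Cys), tryptophan (Trp) and threonine (Thr) tRNAs were examined in bull sperm. They were taken as all rows of the tRNA-derived small RNA (tsRNA) table whose name begins with tRNA-Cys, tRNA-Trp or tRNA-Thr and whose read type is 5′, 3′, neither end or whole. This gave 172 of the 184397 rows, from 14 Cys, 7 Trp and 22 Thr entries. The 3 isotypes were chosen by measured values, the fold changes and p-values of their 3′ fragments between high and low daughter fertility. Trp rows had the smallest p of 169 tRNA 3′ rows with a p and a mean group value of at least 10. By median fold change Trp, Cys and Thr ranked 3, 4 and 7 of 22 isotypes. Since the choice used the daughter fertility comparison, every value of it is given for them as a description, without a test.

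Small RNA was sequenced from 10 cattle (Bos taurus) sperm samples that received no treatment. By the labels, 3 samples had high and 3 low bull fertility, and 3 had high and 3 low associated daughter fertility. 2 of the samples carried both labels: each was high for bull fertility, and they stood on opposite sides for daughter fertility. The comparisons therefore share samples, and the labels do not say how fertility was scored, how old the bulls were or that each sample came from a separate bull.

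Transfer RNAs carry amino acids to the ribosome, and their anticodon decides which codon they read: GCA reads cysteine codons, CCA the tryptophan codon, and AGT, CGT, TGT and GGT read threonine codons. Stressed or maturing cells cut tRNAs near the anticodon loop into a 5′ fragment, which starts at the first base of the mature tRNA, and a 3′ fragment, which ends in the CCA tail that the aminoacyl group is attached to. Mature mouse sperm is rich in such fragments, above all in 5′ fragments of glycine and glutamate tRNAs.

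Each group has 1 deposited value per row, a library-scaled read count. Every positive value was a whole multiple (tolerance 0.0001) of what 1 read was worth in 1 of the 3 libraries of its group. Where the library labelled for both traits set both of its group values, they were equal in all 6755 rows, and in the 547 rows that show all 3 high bull fertility libraries the deposited value was never outside the other 2. The values are thus treated as medians over 3 libraries, and carry no spread. The reads behind a value, and the exact 95% Poisson interval they give, could be counted; such intervals cover counting error in 1 library only. Depth was lowest with high daughter fertility, at 0.618 to 0.785 reads per unit of value, against 0.903 to 2.21 with low daughter fertility, 0.618 to 1.39 with high bull and 0.945 to 1.89 with low bull fertility. For a check of the tissue, 5 male germ cell names had summed mean normalized counts of 3363 (bull fertility samples) and 4353 (daughter fertility samples) in the miRNA part of the authors' deposited table. The names were uneven: miR-34c stood at 1914 and 2442, but miR-202 at 10.9 and 13.7 and miR-449b at 4.70 and 11.4. Those 2 were below single names of other lists, such as leukocyte miR-150 at 167 and 177. The sums were 444 and 567 for 6 leukocyte, 356 and 412 for 6 epithelial, and 265 and 309 for 3 red blood cell names. A part of such other cells in the results below was not tested. In bulk sperm RNA, fewer cells with a fragment and less of it per cell cannot be told apart.

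Of the 172 rows, 107 had a group value above 0 in at least 1 group, and in 75 the mean over the 4 group values was at least 10. The rows for whole tRNAs were at 0 in all groups for all 43 entries. Among the 75 rows were 12 of 5′ fragments, 26 of 3′ fragments and 37 of reads from neither end. Rows below this level were set aside for the summaries, since their values rest on a few reads. The 3 isotypes together held 0.606% of the summed 5′, 3′ and neither-end values of all tRNA entries with high bull fertility, 0.492% with low bull, 0.545% with high daughter and 0.554% with low daughter fertility.

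Cys tRNAs left mainly 5′ fragments in sperm, while Trp and Thr tRNAs left almost none. In the summed group values 5′ fragments made up 69.2% of the Cys signal with high bull, 62.8% with low bull, 70.2% with high daughter and 66.0% with low daughter fertility. The corresponding 5′ share of Trp tRNAs lay between 0.462% and 1.34%, and that of Thr tRNAs between 0.416% and 1.08%. Reads from neither end, internal pieces of the tRNA, made up most of the Trp signal, at 69.5% to 78.2%, and of the Thr signal, at 65.0% to 72.8%. The 3′ fragments held 4.82% to 11.4% of the Cys, 21.0% to 29.2% of the Trp and 26.1% to 34.1% of the Thr signal. Ranked by the mean 5′ share, Thr was the second lowest and Trp the third lowest of 24 isotype names, between methionine at 0.508% and isoleucine at 0.993%, and Cys stood at rank 15. Near-identical entries may count the same reads, so these shares may hold reads more than once, and with 1 value per group they could not be tested.

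**Figure D1:**
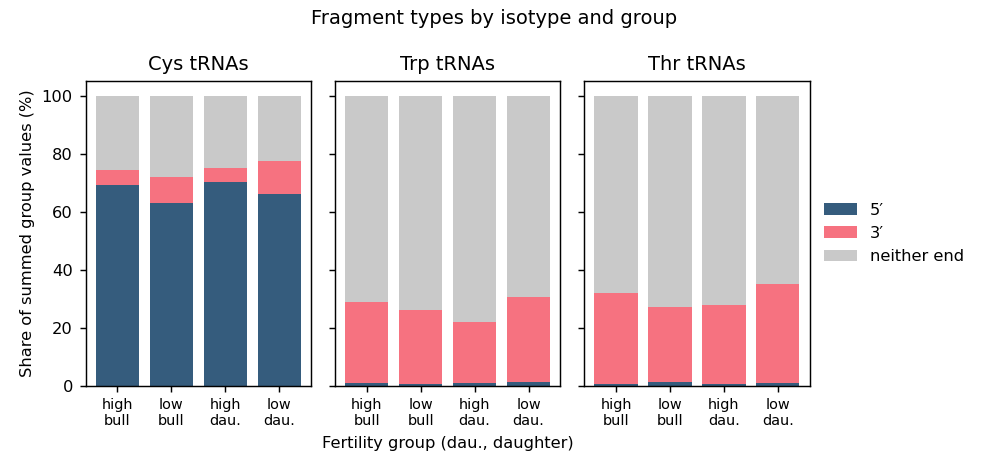
Share of 5′ fragments, 3′ fragments and reads from neither end in the summed group values of Cys, Trp and Thr tRNAs (y axis, percent), in the 4 fertility groups (x axis). The 5′ part fills 62.8% to 70.2% of each Cys bar and at most 1.34% of each Trp or Thr bar.

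The 12 Cys 5′ rows fell at a few levels. Entries 4, 5, 6, 7 and 11 had means of 397 to 400.0, with group values of 314 to 321 for high bull, 378 to 381 for low bull, 439 to 446 for high daughter and 456 to 457 for low daughter fertility. Entries 1, 2, 3, 8 and 13 had means of 148 to 151, with 173 to 179, 105 to 111, 113 to 123 and 189 to 191 in the same order. tRNA-Cys-GCA-10 stood at 174 and tRNA-Cys-GCA-14 at 16.3. Whether the entries of a set were counted from the same reads was not tested. The most abundant row, tRNA-Cys-GCA-4 5′, rested on 321 reads with high bull, 427 with low bull, 336 with high daughter and 1008 with low daughter fertility. Its group values of 321, 381, 441 and 456 stayed within a narrow band.

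Cys entries did not keep the same rank at their 3′ ends. tRNA-Cys-GCA-1, -4 and -10 had equal 3′ values in all groups, as did tRNA-Cys-GCA-3, -6 and -12, although within each trio the 5′ levels differed: tRNA-Cys-GCA-4 5′ had a mean of 400.0 and tRNA-Cys-GCA-1 5′ of 148. For tRNA-Cys-GCA-1 3′ the group value was 25.0 with high bull fertility (25 reads, interval 16.2 to 37.0) and 52.7 with low bull fertility (59 reads, 40.1 to 68.0). It was 24.9 with high daughter fertility (19 reads, 15.0 to 38.9) and 80.1 with low daughter fertility (111 reads, 65.9 to 96.5). The lowest values were those of both high fertility groups. The trio of tRNA-Cys-GCA-3 stood lower, at 18.0, 33.9, 18.4 and 43.3 for high bull, low bull, high daughter and low daughter fertility. Over the 9 Cys 3′ rows the ranges were 13.0 to 25.0, 26.8 to 52.7, 12.7 to 32.8 and 41.7 to 87.5 in that order, so that the low daughter values lay above all high daughter values. tRNA-Cys-GCA-8 3′ marked the upper end for daughter fertility, at 32.8 (25 reads) with high and 87.5 (79 reads) with low daughter fertility. tRNA-Cys-GCA-14 3′ marked the lower end, at 12.7 (10 reads) and 41.7 (92 reads).

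For reads from neither end of Cys tRNAs, the most abundant of the 13 rows, tRNA-Cys-GCA-1, had values of 109, 124, 97.0 and 121 for high bull, low bull, high daughter and low daughter fertility. Medians over the rows were 96.7, 96.5, 89.2 and 101 in that order. Some entries had lower values with high than with low bull fertility: tRNA-Cys-GCA-10 stood at 56.6 against 116, tRNA-Cys-GCA-4 at 63.1 against 117, tRNA-Cys-GCA-5 at 60.1 against 92.0 and tRNA-Cys-GCA-6 at 58.1 against 91.1. Their log2 fold changes ran from -0.58 to -0.37 in the authors' deposited table, with an unadjusted p of 0.399 to 0.572. tRNA-Cys-GCA-11, with a mean of 19.4, and tRNA-Cys-GCA-14, with values of 29.1, 17.4, 17.8 and 32.2, stood below the others, although tRNA-Cys-GCA-11 was among the most abundant at the 5′ end.

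Trp 3′ fragments came at separate levels. The most abundant, tRNA-Trp-CCA-2 3′, had values of 178 with high bull (246 reads), 146 with low bull (163 reads), 185 with high daughter (145 reads) and 201 with low daughter fertility (444 reads). tRNA-Trp-CCA-36 3′ stood at 50.2, 121, 89.2 and 106 in the same order. tRNA-Trp-CCA-1 3′ and tRNA-Trp-CCA-4 3′ were equal in all groups, at 17.3 (24 reads), 8.04 (9 reads), 12.7 (10 reads) and 42.6 (94 reads). In this pair the low daughter value was the highest and the other 3 rested on 24 reads or fewer. From neither end, tRNA-Trp-CCA-2 gave 216, 268, 366 and 249, which was highest with high daughter fertility (287 reads, interval 324 to 410). tRNA-Trp-CCA-36 was highest with low daughter fertility instead, at 170, 199, 232 and 298, and tRNA-Trp-CCA-1 was lowest with high bull fertility, at 39.0, 55.4, 102 and 85.3. The rank of the entries thus differed between fragment types: tRNA-Trp-CCA-3 3′ gave 6.01, 8.93, 14.4 and 14.4, although its reads from neither end were near those of tRNA-Trp-CCA-2.

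Among Thr 3′ fragments, tRNA-Thr-AGT-2 3′, the most abundant row, had values of 61.1 with high bull (61 reads), 49.1 with low bull (93 reads), 43.3 with high daughter (33 reads) and 78.7 with low daughter fertility (109 reads). For tRNA-Thr-CGT-3 3′ they were 43.1, 39.6, 80.0 and 57.0, with the high daughter value above the low one, as in tRNA-Thr-CGT-4 3′ at 74.8 and 52.7. tRNA-Thr-CGT-2 3′, with 26.0, 28.5, 15.7 and 37.5, went the other way, close to tRNA-Thr-AGT-4 3′ at 26.0, 28.6, 14.4 and 33.9. tRNA-Thr-TGT-4 3′ stood at 21.0 (13 reads), 42.9 (48 reads), 42.0 (32 reads) and 56.3 (78 reads). Its counting intervals were 28.7 to 59.2 for high and 44.5 to 70.3 for low daughter fertility. tRNA-Thr-TGT-5 3′ had nearly the same values, 21.0, 42.0, 42.0 and 57.0. tRNA-Thr-TGT-3 3′ was far less abundant, at 8.09, 11.6, 8.09 and 12.3, and rested on 5 reads in each of the high fertility groups, both from the library labelled high for both traits. Over the 12 Thr 3′ rows high daughter values ran from 8.09 to 80.0 and low daughter values from 6.34 to 78.7.

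Among Thr reads from neither end, the most abundant row, tRNA-Thr-AGT-1, was lowest with high bull fertility, at 60.1 against 94.1, 73.9 and 72.5 in the other groups. A set of 4 of the 19 rows, named after their values were seen, went the other way: tRNA-Thr-AGT-9, tRNA-Thr-AGT-10, tRNA-Thr-CGT-5 and tRNA-Thr-GGT-1 had 35.6 to 58.3 with high against 16.9 to 23.8 with low bull fertility. In these 4 the high bull value was that of the library labelled high for both traits, with 22 to 36 reads. The group value of tRNA-Thr-CGT-5 was high for both traits, at 58.3 for bull and 53.8 for daughter fertility, against 23.2 and 24.5 in the low groups. The high groups are not separate, since the library at 58.3 belongs to both. The 24.5 came from a library that is itself in the high bull group, and it lay near the low bull value of 23.2. For tRNA-Thr-AGT-9 that library stood at 11.6, below the low bull value of 16.9. Its values for tRNA-Thr-AGT-10 and tRNA-Thr-GGT-1 are not known.

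**Figure D2:**
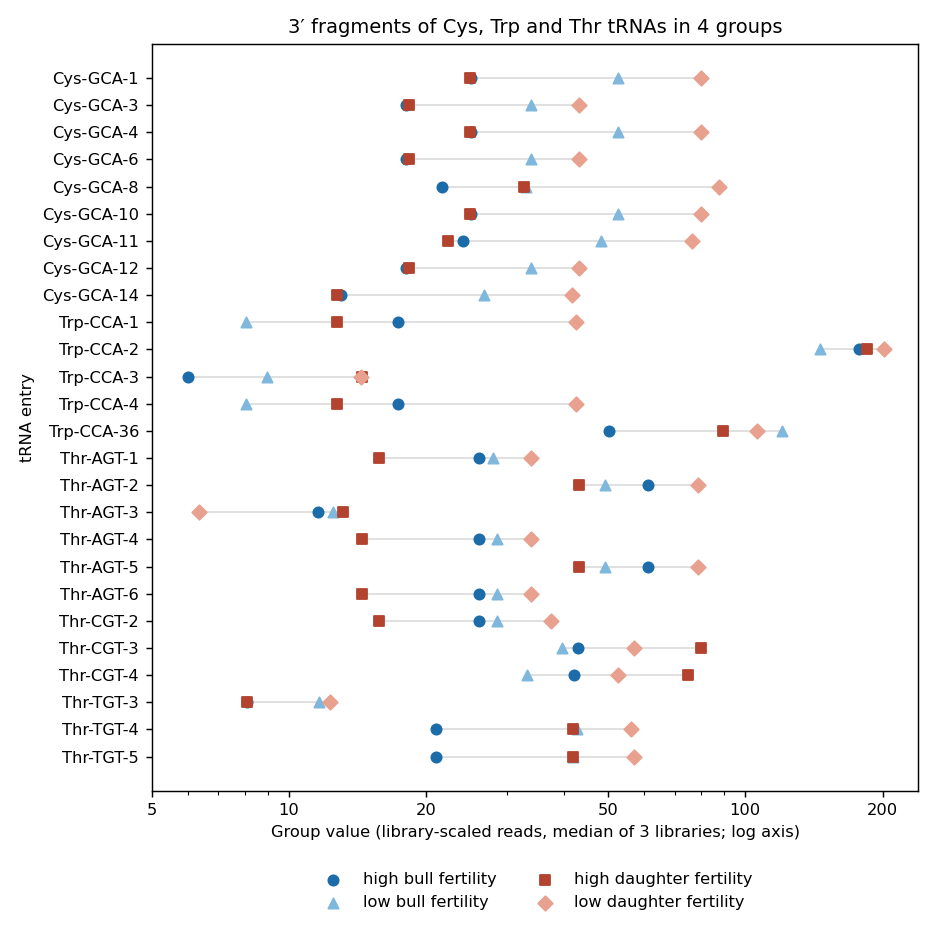
Group values (x axis, library-scaled reads, median of 3 libraries, log axis) of the 26 rows of 3′ fragments with a mean of at least 10 (y axis, tRNA entries), with 1 symbol per fertility group. Low daughter values of Cys entries (diamonds) run from 41.7 to 87.5, to the right of the high daughter values (squares) at 12.7 to 32.8, whereas for tRNA-Thr-CGT-3 the order is turned.

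The bull fertility comparison was not itself used to pick these tRNAs, and its test is given here. It is not independent of the choice, since 2 high bull fertility libraries also belong to the daughter fertility comparison. How far this moved its result was not tested. None of the rows passed: after Benjamini-Hochberg adjustment over the 98760 rows with a p in the authors' deposited table, the adjusted p was 1 for every member, and 0 rows of the whole table were past 0.05 (0% called). Unadjusted p was under 0.05 for 0 of the 73 member rows that had a p and a mean of at least 10, where 1.05% of all such rows of the table were under it. Without a minimum it was under 0.05 for 2 of 110 member rows, where 0.249% of all rows were. No other tool could be run, since no per-sample counts were at hand. Such a result does not show that these fragments are alike in sperm of high and low bull fertility: the standard errors (SE) implied by the authors' fold change and p had medians of 0.68 (Cys 5′), 1.04 (Cys 3′), 1.08 (Trp 3′) and 0.93 (Thr 3′) on the log2 scale. For tRNA-Cys-GCA-1 3′ it was 1.04 in both comparisons, and among the 73 rows it never differed between them by more than 0.0121, as a fit that pools the spread over all 4 groups would give; the model is not given in the sources used here.

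Cys 5′ rows had a median log2 fold change (high over low) of 0.10 in the authors' deposited table, with 7 higher and 5 lower. The 5 rows near 400 stood between -0.28 and -0.27 and the 5 rows near 150 between 0.15 and 0.18, so the signs followed the level. The 9 Cys 3′ rows all had a negative log2 fold change for bull fertility, with a median of -0.20 in the authors' deposited table. The median log2 ratio of their group values was -0.98, as in tRNA-Cys-GCA-1 3′ with 25.0 against 52.7. tRNA-Cys-GCA-8 3′, the member row of 3′ fragments with the smallest p, was at -0.92 (SE 0.91, unadjusted p = 0.312) in the authors' deposited table, with values of 21.7 and 33.1. Trp 3′ rows had a median of -0.28 with 4 of 5 lower, and Thr 3′ rows of -0.23 with 9 of 12 lower, in the authors' deposited table. Group values turned the Trp 3′ median to 0.28, and tRNA-Trp-CCA-1 3′ showed both signs, at -0.28 (SE 1.13) in the authors' deposited table and at 1.02 by its group values of 17.3 and 8.04. Of 153 rows of 3′ fragments from other isotypes 128 had a negative log2 fold change as well, with a median of -0.37.

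For reads from neither end, the median over the 13 Cys rows was -0.04, over the 5 Trp rows -0.46 and over the 19 Thr rows -0.35 in the authors' deposited table. All 5 Trp rows were on the lower side, the most abundant, tRNA-Trp-CCA-2, at -0.46 (SE 0.75) in the authors' deposited table. The 4 Thr rows that stood apart had log2 fold changes from 0.68 to 1.04 in the authors' deposited table, led by tRNA-Thr-AGT-9 at 1.04 (SE 0.85, unadjusted p = 0.223). The other 15 Thr rows lay between -0.43 and 0.04. Over the 243 rows from neither end of other isotypes the median was -0.08, with 139 lower, and over all 1536 such rows of the table it was 0.18.

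**Figure D3:**
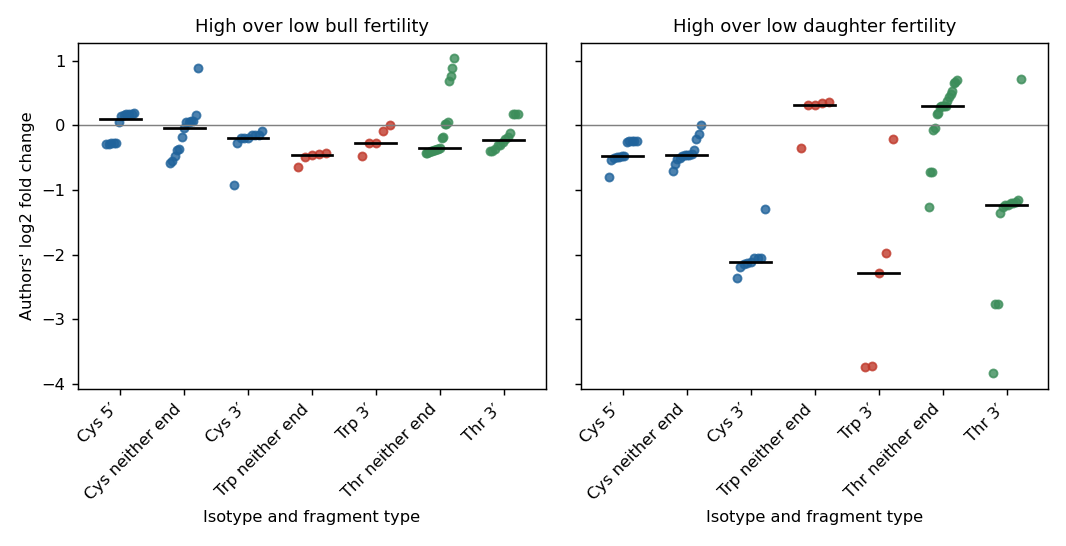
Authors' log2 fold change, high over low fertility (y axis), of each row with a mean of at least 10, by isotype and fragment type (x axis), for bull fertility (left) and daughter fertility (right). Points are rows and black lines medians: 3′ rows reach -3.83 for daughter fertility, whereas all rows lie between -0.92 and 1.04 for bull fertility.

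For daughter fertility, the comparison on which the tRNAs were picked, 3′ fragments had a negative log2 fold change in 25 of 26 rows of the authors' deposited table, where 131 of the 153 rows of other isotypes' 3′ fragments had one. The exception was tRNA-Thr-AGT-3 3′ at 0.72 in the authors' deposited table, with values of 13.1 and 6.34. By the ratio of group values 22 rows were lower and 4 higher with high daughter fertility, the latter with tRNA-Thr-CGT-3, tRNA-Thr-CGT-4 and, at 14.4 in both groups, tRNA-Trp-CCA-3. Median log2 fold changes of the authors' deposited table were -2.12 for Cys 3′, -2.29 for Trp 3′ and -1.24 for Thr 3′, against -0.93 for the 153 rows of 3′ fragments from other isotypes. Unadjusted p was under 0.05 for 9 of the 24 rows of 3′ fragments with a p, all lower, where 3.37% of all rows of the table with a mean of at least 10 and 2.76% of those of other isotypes' 3′ fragments were under it, and 2.24% of the former were under it and lower. Without a minimum it was under 0.05 for 11 of 110 member rows (1.33% of all rows), and with a mean of at least 100 for 0 (1.41% of such rows). These 9 rows hold fewer separate signals, since 3 Cys rows and 2 Trp rows are equal in all groups. Counting equal rows once, a step chosen after the data were seen, leaves 6. Those 6 still hold near copies: tRNA-Thr-TGT-5 3′ (42.0 and 57.0 with high and low daughter fertility) beside tRNA-Thr-TGT-4 3′ (42.0 and 56.3). tRNA-Cys-GCA-11 3′ (22.3 and 76.5) likewise lies near the equal Cys rows (24.9 and 80.1). Read depth moved with the same groups, at 0.618 to 0.785 reads per unit with high and 0.903 to 2.21 with low daughter fertility, and its part in the 3′ difference was not tested. Just inside that threshold of the authors' deposited table was tRNA-Cys-GCA-10 3′, at an unadjusted p of 0.0419 and a log2 fold change of -2.12, and just outside was tRNA-Cys-GCA-14 3′, at 0.0525 and -2.36. No row of the table passed the Benjamini-Hochberg adjustment.

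Cys 5′ rows were also lower with high daughter fertility in 12 of 12 rows and Cys rows from neither end in 12 of 13, with medians of -0.48 and -0.46 in the authors' deposited table. Other isotypes leaned the same way there. Of their 5′ rows 155 of 199 were lower, with a median of -0.40, and from neither end 198 of 243, with a median of -0.44. Rows from neither end had medians of 0.32 for Trp and 0.29 for Thr in the authors' deposited table, with 4 of 5 and 14 of 19 rows higher with high daughter fertility. Among the exceptions was tRNA-Thr-TGT-3 from neither end, at -1.26 (SE 0.74) in the authors' deposited table, with values of 17.0 and 54.3. The difference between fragment types was not tested, since no value per sample was at hand.

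For 9 of the 26 rows of 3′ fragments, those of tRNA-Trp-CCA-1, -2, -4 and -36, tRNA-Thr-TGT-3, -4 and -5 and tRNA-Thr-CGT-3 and -4, the fold change lay far below the ratio of group values. tRNA-Trp-CCA-1 3′ stood at -3.74 (SE 1.13) on the log2 scale in the authors' deposited table, 13.3-fold higher with low daughter fertility, while the log2 ratio of its group values with a pseudocount of 1 was -1.66. tRNA-Thr-TGT-4 3′ was at -2.76 (SE 0.98) in the authors' deposited table and at -0.42 by its group values. For tRNA-Trp-CCA-36 3′ the numbers were -2.29 (SE 0.94) in the authors' deposited table and -0.25. tRNA-Thr-CGT-3 3′ changed sign, from -1.15 (SE 0.96) in the authors' deposited table to 0.48. Cys rows had a smaller gap, with tRNA-Cys-GCA-1 3′ at -2.13 (SE 1.04) in the authors' deposited table and -1.65, and their medians were -2.12 and -1.63. So did the AGT rows, such as tRNA-Thr-AGT-2 3′ at -1.21 (SE 0.91) in the authors' deposited table and -0.85 by its group values, and tRNA-Trp-CCA-3 3′ at -0.21 and 0.0027. Over all rows of a kind the median gap (fold change minus ratio) was -2.04 for Trp, -0.50 for Cys and -0.36 for Thr 3′.

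A fold change that is a ratio of group means sets a least value for the highest of the 3 low daughter libraries, given both medians. Whether the authors' fold change is such a ratio is not given in the sources used here. Read in that way, tRNA-Thr-TGT-4 3′ would need 1 low daughter library at 457 or more, beside a group value of 56.3. tRNA-Trp-CCA-36 3′ would need 660 beside 106, tRNA-Trp-CCA-1 3′ 255 beside 42.6, and tRNA-Trp-CCA-2 3′ 1060 beside 201. Such a least value was over 2 times the group value in 9 of the 26 rows, 4 of Trp and 5 of Thr tRNAs. For tRNA-Cys-GCA-1 3′ it was 57.3, below the group value of 80.1. A p is missing for 2 of the 26 rows, tRNA-Trp-CCA-2 3′ and tRNA-Thr-TGT-3 3′, at -1.98 and -3.83 in the authors' deposited table, and for 962 of the 99722 rows with a fold change.

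**Figure D4:**
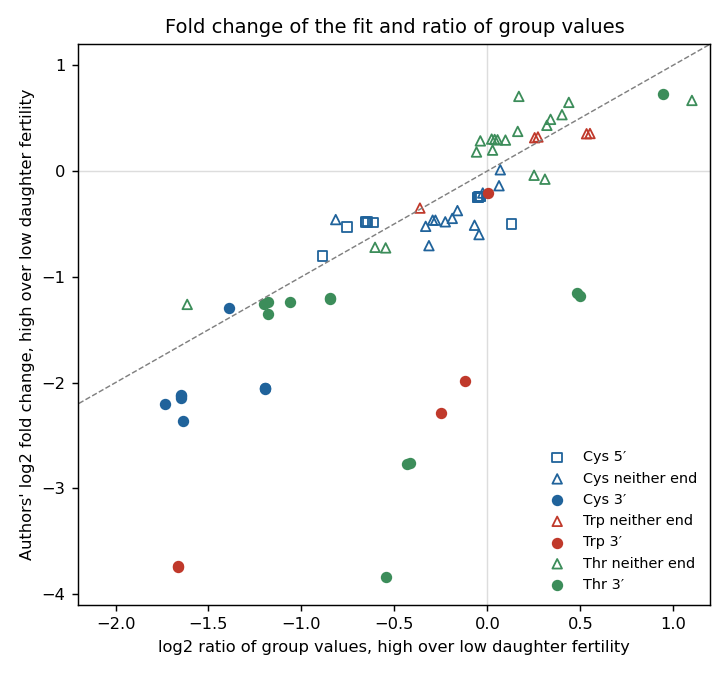
Authors' log2 fold change (y axis) against the log2 ratio of group values with a pseudocount of 1 (x axis), high over low daughter fertility, for the 75 rows with a mean of at least 10. Symbols mark fragment types and colours isotypes, and the dashed line marks equal values. 9 of the 26 rows of 3′ fragments, of Trp and Thr tRNAs, lie far below the line, such as tRNA-Thr-TGT-4 at -2.76 against -0.42, while tRNA-Trp-CCA-3 and the AGT rows of Thr lie near it.

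Since medians name their library, single libraries could be followed in part. The library labelled high bull and low daughter fertility set the low daughter value in 19 of the 26 rows of 3′ fragments. In all 19 it was also the highest of the 3 high bull libraries, as it was in 71 of the 91 rows of other isotypes' 3′ fragments in which it set the low daughter value. For tRNA-Cys-GCA-1 3′ it stood at 80.1, the library labelled for high bull fertility alone at 25.0, and that labelled high for both traits at 25.0 or less. Its value for tRNA-Thr-AGT-2 3′ was 78.7, against 61.1 in the library of high bull fertility alone. The same library was not high throughout: for tRNA-Trp-CCA-1 3′ it stood at 17.3, below the low daughter value of 42.6, and for tRNA-Trp-CCA-2 3′ at 178, below 201. In those 2 rows both other low daughter libraries were at or above the group value. It set the low daughter value in 0 of the 12 Cys 5′ rows and in 9 of the 37 rows from neither end, and in those 91 of the 153 rows of other isotypes' 3′ fragments (59.5%, against 73.1% here). How far this 1 library carries the 3′ difference was not tested.

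Among isotypes, Trp and Cys 3′ fragments were not the farthest from 0. Ranked by the median log2 fold change for daughter fertility, Trp was the third, Cys the fourth and Thr rank 7 of 22. Ahead were isoleucine, with 1 row at -3.53, and glutamine, with a median of -3.18 over 9 rows, in the authors' deposited table. A p was missing for the isoleucine row and for 5 of the glutamine rows. By group values the order changed. The median log2 ratio was -1.86 for methionine, -1.63 for Cys, -1.20 for glycine, -1.05 for proline and -0.87 for glutamine. Histidine (-0.78), tyrosine (-0.77) and leucine (-0.76) followed before Thr at -0.70. Further isotypes, from selenocysteine at -0.60 to phenylalanine at -0.33, stood between Thr and Trp at -0.25. Lysine (-0.16), aspartate (-0.14), serine (0.04) and asparagine (0.45) came after Trp.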

How the data were processed

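RNA was extracted from sperm and made into small RNA libraries, per the labels' protocols. The submitters' processing notes list Trimmomatic 0.39 and DESeq2 1.34.0 but give them no role. How reads were aligned, to which build and tRNA annotation, and how reads matching several entries were counted is not given in the sources used here, and coordinates are left out. The tsRNA table holds, per the file headers, the authors' log2 fold change (high over low), an unadjusted p-value and 1 library-scaled signal per group. The miRNA tables, per the file headers, hold the authors' mean signal, log2 fold change, Wald statistic (a score) and p-value; of these the mean and the adjusted p were used, for marker names. Count-based tests planned for per-sample values were replaced by the deposited values. Members, lists and named rows were chosen with earlier results of these data known. Named by rule were the most abundant row per isotype, anticodon and fragment type, and rows at the p threshold. Up to 6 rows per comparison and type with the smallest p were also named by rule. For this and for the summaries a row needed a mean over the 4 group values of at least 10. Further rows, such as tRNA-Trp-CCA-3 3′ and tRNA-Cys-GCA-5 from neither end, are named after their values were seen. Benjamini-Hochberg adjustment over all rows, implied standard errors, read steps and exact Poisson intervals were computed with Python 3.11.15, numpy 2.4.6, pandas 2.3.3 and scipy 1.17.1. On simulated medians of 3 libraries with the depths of the tsRNA table, all 3 steps came back in 20 of 20 columns of 184397 rows. p-values set a fold change against the spread between these samples alone, which may be technical. Total reads per library are unknown.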

Additional observations from a re-analysis of the deposited data

Results flagged for a closer look

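Antisense reads, which no comparison above uses, exceeded what 3 reads in the shallowest library of each group would give for 1 of the 43 Cys, Trp and Thr entries: those of tRNA-Thr-CGT-3 had a mean of 7.75, with group values of 8.09, 8.04, 8.09 and 6.79 for high bull, low bull, high daughter and low daughter fertility, where 3 reads in the shallowest library stand for 4.86, 3.17, 4.86 and 3.32. There are no control samples to set this against.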

How the results depend on the processing

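Of 103 alternatives, 84 were classed as leaving the result the same, 14 as moving it and 5 as turning its sign. Medians of fold changes counted as the same if they kept their sign and stayed within the median implied SE of their rows. Shares counted as the same within their standard deviation over the 4 groups. Neither limit is an error of the result itself, and counts of rows with an unadjusted p under 0.05 had no such limit. With no filter on low values 2 member rows, in place of 0, had an unadjusted p under 0.05 for bull fertility, and with a mean of at least 100 the number for daughter fertility was 0 in place of 9, since the 1 row of 3′ fragments left, tRNA-Trp-CCA-2, has no p. The median for Trp 3′ and bull fertility, -0.28, became 0.28 with log2 ratios of group values at a pseudocount of 1, 0.29 at 0.5 and 0.28 at 5, and 0.0063 with a mean of at least 100 (1 row); that of Cys reads from neither end, -0.04, became 0.0075 with no filter. For Cys 3′ and bull fertility the median of -0.20 became -0.98, -0.99 and -0.82 at those pseudocounts. For daughter fertility the Trp 3′ median of -2.29 became -0.25, -0.25 and -0.24 at those pseudocounts; the cause was not tested.

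With the most abundant row per anticodon in place of sums, the mean share over groups went from 67.1% to 71.7% (Cys 5′), from 25.3% to 20.5% (Cys neither end), from 25.9% to 39.3% (Trp 3′), from 73.2% to 59.9% (Trp neither end), from 0.703% to 2.10% (Thr 5′), from 29.7% to 38.9% (Thr 3′) and from 69.6% to 59.0% (Thr neither end). Counting rows that are equal in all groups once, gave 25.6% for Thr 3′ and 73.7% for Thr neither end. No paired analysis was possible because the tables hold no value per sample, so that the planned fits without each replicate, with other count tools and with other scalings were not run either. Depth limits the 3′ rows most, with as few as 5 reads behind a group value with high daughter fertility.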

Other observations

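Below a mean of 10 a few fragments had an unadjusted p under 0.05, and they are named after their values were seen. Of all rows with a p, 0.249% were under it for bull and 1.33% for daughter fertility. Reads from neither end of tRNA-Cys-GCA-15 had group values of 14.0 with high bull, 2.11 with low bull, 0 with high daughter and 8.15 with low daughter fertility, while the authors' deposited table lists log2 fold changes of 2.36 (bull) and -3.26 (daughter). The 5′ fragment of tRNA-Thr-GGT-1, the only Thr entry with that anticodon, had 2.00, 12.7, 3.82 and 4.43 in that order, at -2.03 (log2, bull) in the authors' deposited table. Reads from neither end of tRNA-Thr-AGT-7 had 1.00, 1.06, 1.27 and 3.62 in that order, at -3.46 (log2, daughter, unadjusted p = 0.00753) in the authors' deposited table. None of these rows passed the Benjamini-Hochberg adjustment, with an adjusted p of 1. They rest on few reads, such as 2 with high bull fertility for tRNA-Thr-GGT-1.

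Cys and Trp tRNA names are common in the cattle genome. The RefSeq gene table of ARS-UCD2.0 lists 247 genes named TRNAC-GCA and 174 named TRNAW-CCA, against 12 named TRNAT-AGU, 11 TRNAT-UGU and 6 TRNAT-CGU. The tsRNA table holds 14, 7, 10, 6 and 5 tRNA entries for those anticodons, and 16978 Cys, 2003 Trp and 101 Thr low-confidence entries named tRX. For TRNAT-GGU the gene table lists 0 genes, while the tsRNA table holds 1 entry, tRNA-Thr-GGT-1. How reads were shared between such copies is not given in the sources used here.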
